A study of Rattus norvegicus with 53 samples.

Results

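The genes described here are the rat MHC class II chains RT1-Da, RT1-Db1, RT1-Ba and RT1-Bb, the class II chaperones Cd74, RT1-DMa and RT1-DMb, the class II transactivator Ciita, and Marchf8. They are 9 genes, read by 15 probe sets among the 31042 probe sets tested. Members are all probe sets annotated to one of these symbols. Ciita and Marchf8 were chosen by their difference in level between cultures with plasma of d60 DR+/+ rats and autologous cultures, so that comparison is described below without a test. The other genes were chosen for their place in the same pathway, with results of these arrays already known.

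Peripheral blood mononuclear cells (PBMCs) of healthy male Brown Norway (BN) rats aged 180 days were cultured for 6 h with 20% plasma or serum of another rat or their own, and their RNA was hybridised to Affymetrix rat arrays, 53 in all. The cells thus served as a sensor for what the plasma contained. The donors of the plasma belonged to 8 groups. The BioBreeding (BB) DRlyp/lyp rat carries the lyp mutation of Gimap5, is lymphopenic and develops spontaneous autoimmune diabetes. The congenic DR+/+ rat lacks the mutation and does not become diabetic spontaneously. Plasma of d60 DRlyp/lyp rats was used with the interleukin-1 receptor antagonist IL-1RA added (4 arrays) or alone (4 arrays), and plasma of d60 DR+/+ rats on 4 arrays. For 6 arrays each, serum came at d40 from DRlyp/lyp rats given human IL-1RA (350 ug/kg/day for 10 days from d30) or PBS. The source labels of the 6 d40 IL-1RA arrays speak instead of serum supplemented with hIL-1RA, and the study's design was followed here. The remaining groups used plasma of BN rats aged 180 days, so BN and BB donors differed in age as well as strain. They were autologous plasma with interleukin-1 beta (IL-1B) added (4 arrays), plasma of other BN rats (allogeneic, 15 arrays) and autologous plasma alone (10 arrays). All cells came from BN rats, so the class II alleles measured were those of 1 strain in every group.

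Clustering split the arrays in 2, along a line that no label explains. The first cluster held 21 arrays, namely all d40 sera, allogeneic replicates 1 to 3 and autologous replicates 1 to 6, and the second held the other 32. Every test of a plasma group below stays within a cluster, apart from the allogeneic fits that are named as pooled or as a difference between clusters. Sera of d40 and d60 rats never shared a cluster, so the age of the serum donor and the cluster cannot be told apart. Array medians ran from 5.29 to 5.63 on the log2 scale. The 3′ signal of actin minus its 5′ signal (log2), which grows as RNA degrades, had group means between 2.23 and 3.91, and 2 arrays lay far below their groups, allogeneic replicate 2 at 0.76 and DR+/+ replicate 4 at 1.13. Among marker lists of blood cells, 8 of 8 T-cell, 5 of 8 B-cell and 8 of 9 monocyte genes had a probe set. Their mean log2 levels per array ran from 8.14 to 10.17, from 7.58 to 9.24 and from 5.98 to 8.06, and erythroid and platelet lists also gave signal, at 6.83 to 10.69 and 9.29 to 11.75. In a mixed cell population fewer cells of a type and less RNA per cell cannot be told apart.

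MHC class II molecules present peptides from endocytosed protein to CD4+ T cells and are carried by B cells, monocytes and dendritic cells. CIITA does not bind DNA itself; it docks onto factors already sitting on the conserved X and Y boxes of class II promoters (the RFX complex, CREB and NF-Y) and so sets how strongly the class II chains, Cd74 and the DM chains are transcribed together. Rat RT1-D corresponds to human HLA-DR and RT1-B to HLA-DQ, each an alpha chain (RT1-Da, RT1-Ba) paired with a beta chain (RT1-Db1, RT1-Bb). Cd74, the invariant chain, plugs the peptide groove during transport, and the RT1-DM heterodimer swaps its last fragment for antigenic peptide. MARCHF8 is a membrane-bound ubiquitin ligase which, in human and mouse cells, can tag class II molecules and take them off the surface. In monocytes, interferon-gamma is the textbook inducer of Ciita.

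The shared promoter layout is shown first because it is the sequence through which CIITA acts. RefSeq (assembly GRCr8) listed promoter windows, from 250 bases before to 50 after the start that its promoter table uses, for 7 of the 9 genes. That start lay 2430 bases inside the gene record for Marchf8, 135 for Cd74, 22 for RT1-Da and 20 for RT1-Db1, and at the first transcribed base of the record for RT1-Ba, RT1-Bb and RT1-DMa. Ciita and RT1-DMb were the genes without an entry. Each line gives 61 bases, 5′ to 3′ on the strand of the gene, with matches in capitals: the X-box letters GNNACNGAT, the Y-box letters GATTGG and, in RT1-Ba, the CRE letters TGACGTCA. The motif letters were chosen with these promoters in view, and both strands were searched.
RT1-Da, chr20:4515320-4515380, plus strand: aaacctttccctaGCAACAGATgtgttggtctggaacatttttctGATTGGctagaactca
RT1-Db1, chr20:4560228-4560288, minus strand: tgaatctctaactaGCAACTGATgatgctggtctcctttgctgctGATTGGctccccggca
RT1-Ba, chr20:4576968-4577028, plus strand: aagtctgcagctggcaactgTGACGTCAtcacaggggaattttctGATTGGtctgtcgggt
RT1-Bb, chr20:4604165-4604225, minus strand: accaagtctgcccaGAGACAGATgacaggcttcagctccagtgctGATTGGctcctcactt
RT1-DMa, chr20:4712385-4712445, minus strand: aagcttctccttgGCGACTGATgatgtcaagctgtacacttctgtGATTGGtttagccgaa

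In RT1-Da, RT1-Db1, RT1-Bb and RT1-DMa the X letters stood 23, 22, 22 and 23 bases before the Y letters, and the Y letters lay 50, 81, 62 and 65 bases before the start. RT1-Ba held the Y letters 44 bases before its start together with the CRE letters and no full match of the X letters. The bases right before its CRE letters fit the X letters up to their final AT. The lack of a full match therefore does not show that RT1-Ba lacks an X box. Over all 33469 RefSeq promoter windows, 7.83% held the X letters, 14.8% the Y letters and 1.83% the CRE letters. X followed by Y on the same strand within 40 bases occurred in 28 windows (0.0837%), which included RT1-Da, RT1-Db1, RT1-Bb and RT1-DMa together with RT1-Db2 and RT1-DOb, 2 further class II genes. A stricter X search, which also required a G right after those letters, matched 2.84% of windows, and X followed by Y then occurred in 11 (0.0329%), the same 6 class II genes among them. The looser letters were kept for a reason of presentation, and no biological criterion chose between the forms. The listed windows of Cd74 and Marchf8 held none of these letters, and upstream bases outside those windows were not searched. In GRCr8 the RT1 genes lie between 4515393 and 4712335 on chromosome 20, Ciita lies on chromosome 10 (5646854 to 5694393), Cd74 on chromosome 18 (56527071 to 56536406) and Marchf8 on chromosome 4 (151086076 to 151203205).

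Ciita was read by probe sets 1379381_at and 1369214_a_at, and the group means of the first spread more widely. On 1379381_at the second cluster held log2 levels of 8.78, 8.42, 8.79 and 9.13 with DRlyp/lyp plasma plus IL-1RA, 8.79, 8.43, 8.50 and 8.77 with DRlyp/lyp plasma, and 9.65, 8.99, 9.16 and 9.13 with DR+/+ plasma. Autologous plasma plus IL-1B gave 8.23, 8.35, 8.31 and 8.44, allogeneic plasma had a lowest, median and highest level of 7.48, 7.92 and 8.81, and autologous plasma alone gave 8.29, 7.84, 8.40 and 8.34. All 4 DR+/+ arrays lay above every autologous, allogeneic and IL-1B array. In the first cluster the 6 d40 IL-1RA arrays ran from 7.75 to 8.69 (median 8.31), the 6 d40 PBS arrays from 8.26 to 9.19 (median 8.93), the 3 allogeneic arrays stood at 8.65, 8.09 and 8.13, and the 6 autologous arrays ran from 7.46 to 8.69 (median 7.99). The d40 PBS group was the highest there but overlapped each of the others. Ordered by mean, the second cluster ran DR+/+ (9.23 ± 0.29, SD, n = 4), DRlyp/lyp plus IL-1RA (8.78 ± 0.29, n = 4), DRlyp/lyp (8.62 ± 0.18, n = 4), IL-1B (8.33 ± 0.09, n = 4), autologous (8.22 ± 0.26, n = 4) and allogeneic (8.01 ± 0.43, n = 12), and each neighbouring pair in this order overlapped. The other probe set, 1369214_a_at, kept to group means between 6.42 and 6.81 in both clusters and correlated with the first at r = 0.15 over 21 arrays and r = 0.19 over 32 arrays.

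**Figure D1:**
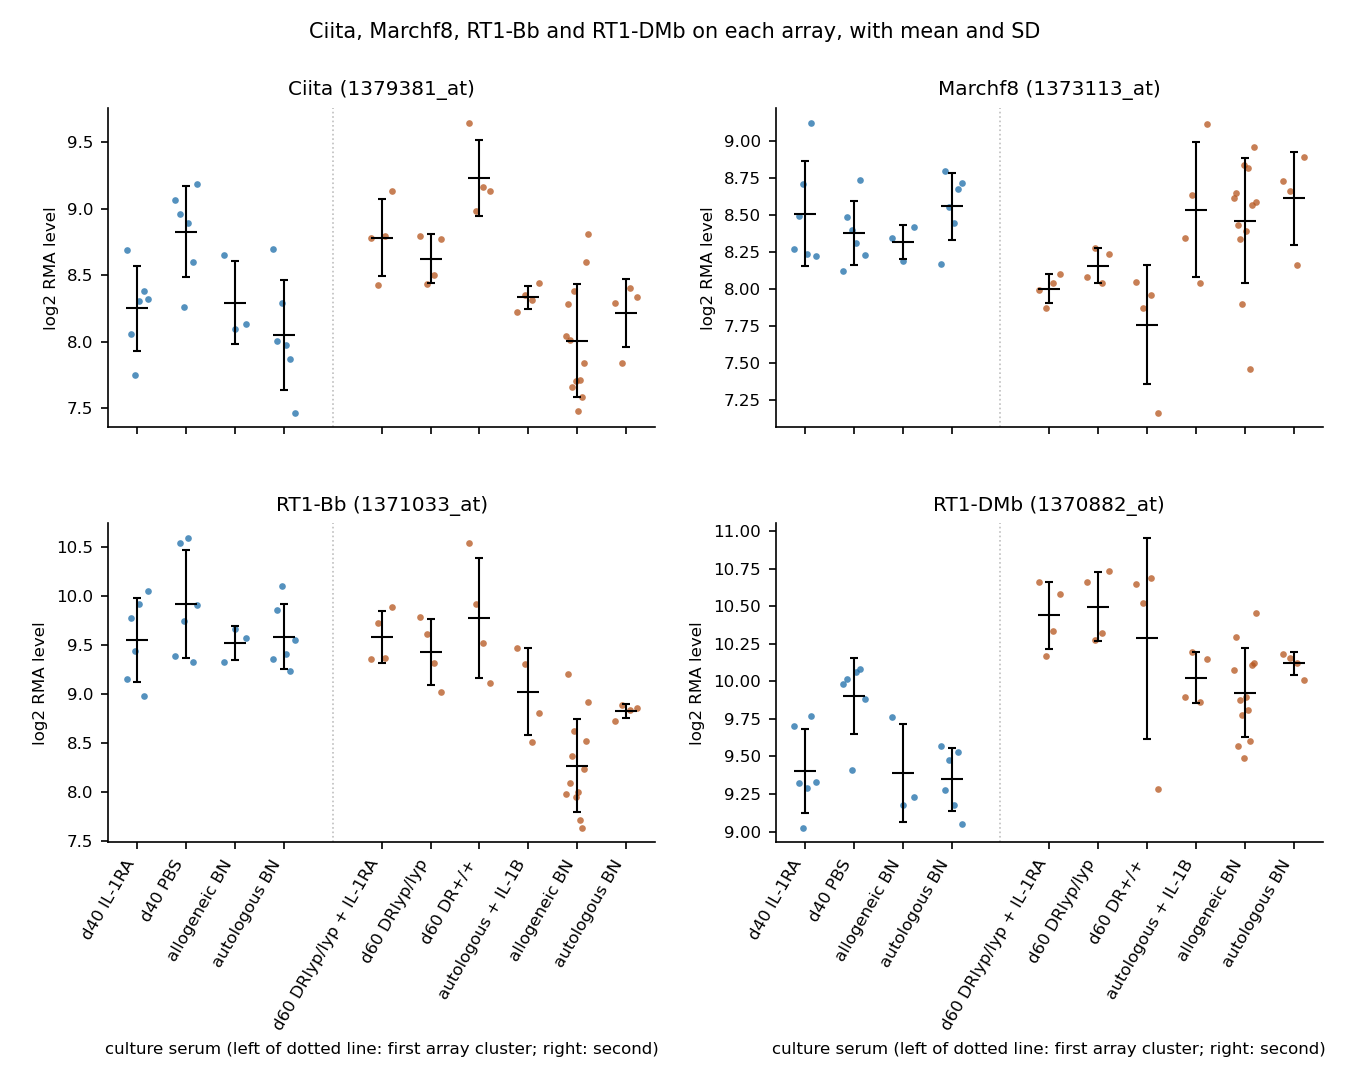
Log2 array level (vertical axis) of Ciita (1379381_at), Marchf8, RT1-Bb (1371033_at) and RT1-DMb on each of the 53 arrays, with the groups along the horizontal axis, both array clusters kept apart, and group means with SD. The 4 DR+/+ arrays lie at 8.99 to 9.65 for Ciita, above every IL-1B, allogeneic and autologous array of the second cluster, and have that cluster's lowest mean for Marchf8 (7.76).

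Of the RT1-D chains, RT1-Da (1370883_at) had log2 levels of 12.95, 12.91, 13.19 and 13.25 with DRlyp/lyp plasma plus IL-1RA, 13.25, 13.08, 13.32 and 13.29 with DRlyp/lyp plasma, 13.26, 12.92, 13.37 and 12.77 with DR+/+ plasma, and 12.96, 12.98, 13.11 and 13.07 in autologous cultures of the second cluster. The allogeneic arrays of that cluster spread from 11.69 to 13.24 (median 12.61). Groups overlapped throughout, and the allogeneic arrays reached the lowest levels. For the beta chain RT1-Db1, probe set 1370383_s_at gave 11.61, 11.38, 11.38 and 11.75 with DRlyp/lyp plasma plus IL-1RA, 12.01, 11.65, 12.02 and 11.80 with DRlyp/lyp plasma, and 11.96, 11.89, 11.82 and 9.73 with DR+/+ plasma. Autologous cultures of that cluster gave 11.19, 11.29, 11.35 and 11.55, all below the DRlyp/lyp arrays. DR+/+ replicate 4, the array with the actin difference of 1.13, stood more than a log2 unit below the other DR+/+ arrays. A further RT1-Db1 probe set from the same source sequence, 1370382_at, did not follow the first: DR+/+ replicate 4 was its group's highest array at 9.22, against 8.77, 8.58 and 8.75 for the others.

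The RT1-B alpha chain was read by 4 probe sets, of which 1381593_x_at and 1392334_at derive from 1 source sequence. On 1381593_x_at the second-cluster means were 13.47 for DRlyp/lyp plus IL-1RA, 13.41 for DRlyp/lyp, 13.44 for DR+/+, 13.28 for IL-1B, 13.15 for allogeneic and 13.32 for autologous cultures, a narrow span of overlapping groups. Its first-cluster means were 12.96 for d40 IL-1RA, 13.15 for d40 PBS, 12.67 for allogeneic and 12.97 for autologous cultures. The beta chain RT1-Bb spread more. On 1371033_at it stood at 9.36, 9.72, 9.37 and 9.89 with DRlyp/lyp plasma plus IL-1RA, 9.78, 9.61, 9.31 and 9.02 with DRlyp/lyp plasma, and 10.55, 9.92, 9.52 and 9.11 with DR+/+ plasma. IL-1B cultures gave 9.47, 9.31, 8.51 and 8.80, allogeneic cultures 7.63, 8.16 and 9.20 as lowest, median and highest, and autologous cultures 8.72, 8.89, 8.84 and 8.86. Every array with d60 BB rat plasma lay above every autologous array of its cluster. The share of all probe sets that did so was 2.54% for DR+/+ and 0.857% for DRlyp/lyp plasma, and was not counted with IL-1RA added. The second RT1-Bb probe set, 1371065_at, had a mean of 3.43, at percentile 9.61 of all probe sets, and its group means stayed between 3.30 and 3.60.

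Cd74 had log2 levels of 13.59, 13.57, 13.36 and 13.60 with DRlyp/lyp plasma plus IL-1RA, 13.71, 13.59, 13.31 and 13.38 with DRlyp/lyp plasma, and 13.71, 13.60, 13.45 and 12.33 with DR+/+ plasma. Cultures with IL-1B gave 13.39, 13.43, 12.88 and 13.24, and autologous cultures of the second cluster 13.41, 13.58, 13.10 and 13.14. The 12 allogeneic arrays of that cluster ran from 11.29 to 13.28 (median 12.48), the widest range of any Cd74 group. DR+/+ replicate 4 was again the low array of its group. In the first cluster the 3 allogeneic arrays stood at 12.94, 12.92 and 13.37 and the 6 autologous ones between 12.82 and 13.29, within the same span.

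Of the DM chains, RT1-DMb had log2 levels of 10.66, 10.17, 10.34 and 10.58 with DRlyp/lyp plasma plus IL-1RA, 10.66, 10.28, 10.32 and 10.73 with DRlyp/lyp plasma, and 10.65, 10.52, 10.69 and 9.29 with DR+/+ plasma. Autologous cultures gave 9.05 to 9.57 in the first cluster (6 arrays) and 10.18, 10.16, 10.12 and 10.01 in the second. The autologous clusters did not overlap for RT1-DMb, which was 0.77 lower in the first, nor for 4 RT1-Ba probe sets (0.35 to 0.69 lower), RT1-Da (0.28 lower) and RT1-Bb 1371033_at (0.76 higher). No overlap between these autologous arrays was seen for 12.3% of all probe sets upward and 20.4% downward. RT1-DMa stood at 9.23, 9.06, 8.46 and 8.64 with DRlyp/lyp plasma plus IL-1RA, 9.68, 9.27, 8.84 and 8.51 with DRlyp/lyp plasma, 9.23, 9.54, 8.95 and 6.99 with DR+/+ plasma and 8.87, 9.03, 8.19 and 7.98 in autologous cultures of the second cluster. Apart from DR+/+ replicate 4, these groups shared one range. Its autologous arrays overlapped between clusters, with means of 8.43 in the first and 8.52 in the second.

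**Figure D2:**
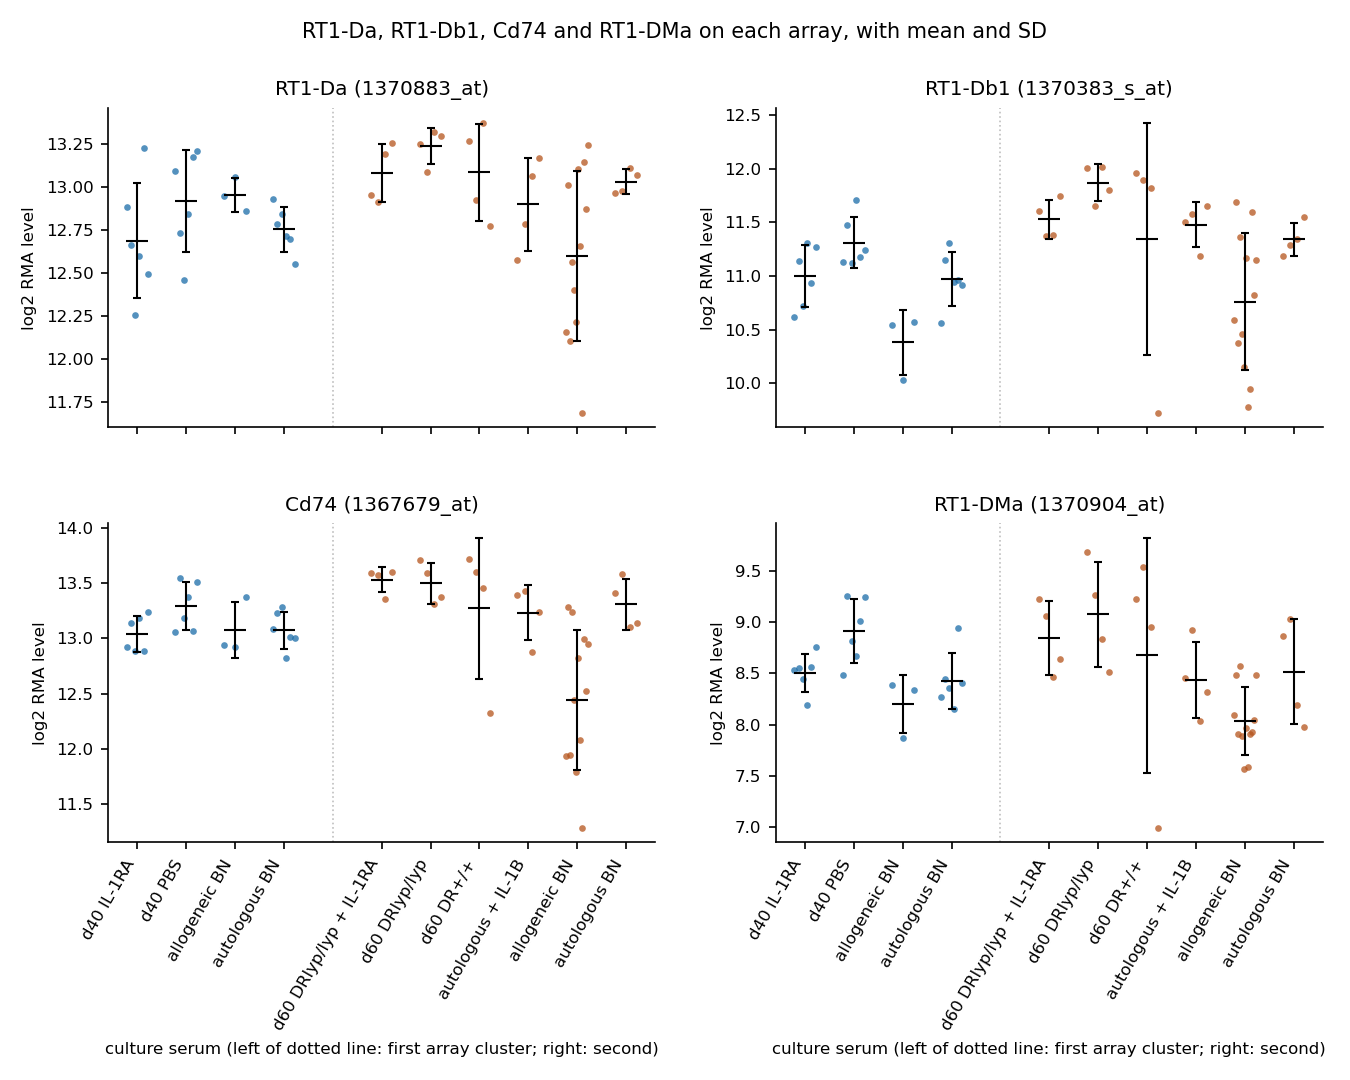
Log2 array level (vertical axis) of RT1-Da, RT1-Db1 (1370383_s_at), Cd74 and RT1-DMa on each of the 53 arrays, with the groups along the horizontal axis, both array clusters kept apart, and group means with SD. DR+/+ replicate 4 lies at 9.73 for RT1-Db1, 12.33 for Cd74 and 6.99 for RT1-DMa, and the 12 allogeneic arrays of the second cluster spread widely for Cd74 (11.29 to 13.28).

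Marchf8 had log2 levels of 7.99, 7.87, 8.04 and 8.10 with DRlyp/lyp plasma plus IL-1RA, 8.08, 8.28, 8.04 and 8.24 with DRlyp/lyp plasma, and 8.05, 7.87, 7.96 and 7.16 with DR+/+ plasma. Cultures with IL-1B gave 8.35, 8.63, 8.04 and 9.12, allogeneic ones 7.46, 8.58 and 8.96 as lowest, median and highest, and autologous ones 8.73, 8.67, 8.16 and 8.89. All 4 DR+/+ arrays lay below all 4 autologous arrays, as was the case for 3.29% of all probe sets, whereas the arrays of DRlyp/lyp plasma alone overlapped them. All 4 arrays of DRlyp/lyp plasma plus IL-1RA also lay below the autologous arrays, but the share of all probe sets was not counted there. In the first cluster its means were 8.51 ± 0.35 (SD, n = 6) for d40 IL-1RA, 8.38 ± 0.22 (n = 6) for d40 PBS, 8.32 for the 3 allogeneic and 8.56 ± 0.23 (n = 6) for autologous arrays.

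The comparison that chose Ciita and Marchf8, DR+/+ against autologous plasma, is given as description only. Within the second cluster Ciita 1379381_at was 1.02 higher with DR+/+ plasma on the log2 scale (SE 0.24, 2.02-fold), RT1-Bb 1371033_at 0.95 higher (SE 0.29, 1.93-fold) and Marchf8 0.85 lower (SE 0.23, 1.80-fold). For these 3 probe sets the DR+/+ and autologous arrays did not overlap, as was the case for 2.54% of all probe sets upward and 3.29% downward. The other 12 differed by -0.28 to 0.61. Without DR+/+ replicate 4 the differences of RT1-DMa, RT1-Db1 1370383_s_at, RT1-DMb and Cd74 were 0.72, 0.54, 0.50 and 0.28, against 0.16, 0.00, 0.17 and -0.04 with it, while Ciita was at 1.05, RT1-Bb at 1.17 and Marchf8 at -0.65. A list of 8 monocyte markers moved with this contrast: its genes had a median difference of 0.80 (from -0.13 to 2.23), and its mean level per array was 7.65 to 8.06 with DR+/+ plasma, against 6.74 to 7.41 in autologous cultures. The 5 platelet markers had a median difference of -0.94 (from -1.28 to -0.09), the 7 natural killer markers of -0.34 and the 5 erythroid markers of -0.26. The part of these cell markers in the class II values was not tested.

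DRlyp/lyp plasma set against the same autologous arrays, also without a test, placed RT1-Bb at 0.61, RT1-DMa at 0.56, RT1-Db1 1370383_s_at at 0.53, Ciita at 0.41 and RT1-DMb at 0.38, with Marchf8 at -0.45. RT1-Bb, RT1-Db1, Ciita and RT1-DMb showed no overlap with the autologous arrays (0.857% of all probe sets upward, 1.66% downward). The monocyte list had a median of 0.74 and the platelet list of -0.59 here, and DR+/+ and DRlyp/lyp share their autologous arrays.

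**Figure D3:**
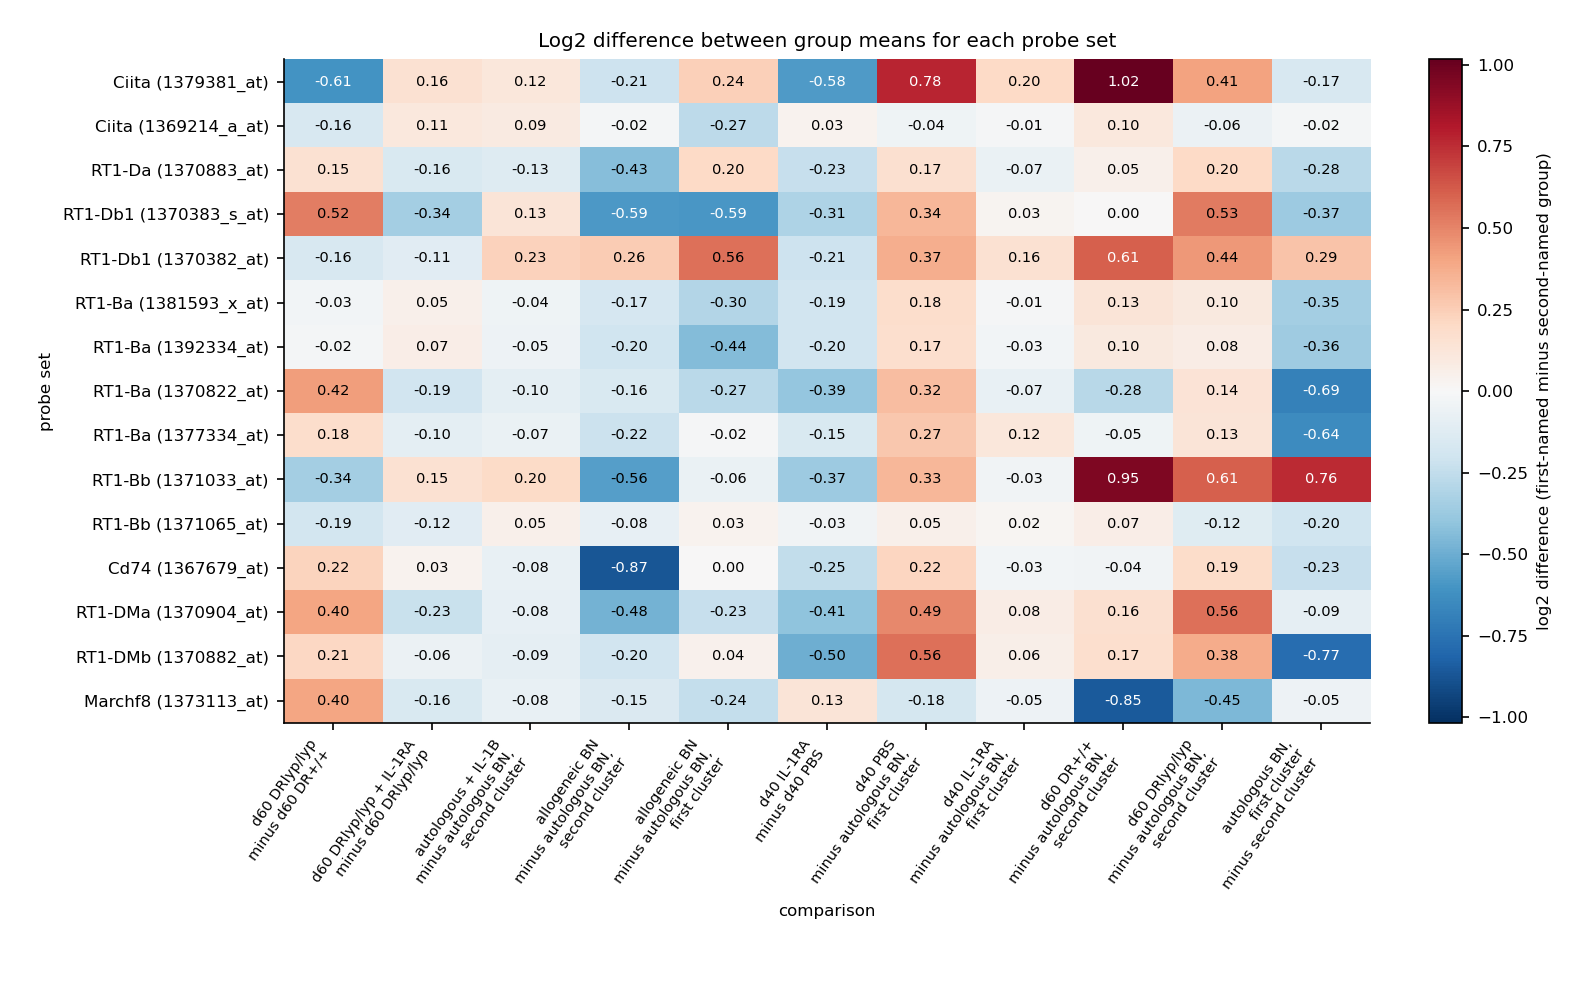
Log2 difference (colour and printed value) for the 15 probe sets (rows) in 11 comparisons (columns), each the first-named group minus the second; 10 stay within a cluster, and 1 sets the autologous arrays of the first cluster against those of the second. DR+/+ minus autologous shows 1.02 for Ciita 1379381_at and -0.85 for Marchf8, and d40 IL-1RA minus PBS is below 0 in 13 of 15 rows.

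DRlyp/lyp against DR+/+ plasma asked whether the diabetes-prone donor's plasma drove class II genes differently from that of its congenic partner at d60. Ciita 1379381_at averaged 8.62 ± 0.18 with DRlyp/lyp plasma and 9.23 ± 0.29 with DR+/+ plasma (SD, n = 4 each), a log2 difference of -0.61 (SE 0.24, 1.52-fold lower). It was lower in 4 of 4 pairs of equal replicate number, and the groups did not overlap, which held for 0.873% of all probe sets in this direction. It did not pass limma's test over all probe sets (adjusted p = 0.721; 0.683 with the replicate number as a block), and it shares its DR+/+ arrays with the comparison that chose it. Marchf8 was 0.40 higher with DRlyp/lyp plasma (higher in 4 of 4 pairs, adjusted p = 0.906) and RT1-Bb 0.34 lower (lower in 4 of 4 pairs, adjusted p = 0.960). Of all probe sets 9.66% were higher and 7.9% lower in every pair. Of the 15 probe sets 0 passed, as did 0% of all probe sets, while 1 of 15 and 1864 of all had an unadjusted p under 0.05. Without DR+/+ replicate 4 Ciita stood at -0.64, RT1-Bb at -0.56 and Marchf8 at 0.20, while 4 of the 15 differences changed sign: RT1-Db1 1370383_s_at stood at -0.02 (0.52 with it), RT1-DMa at -0.16 (0.40), RT1-DMb at -0.12 (0.21) and Cd74 at -0.09 (0.22).

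IL-1RA added to DRlyp/lyp plasma in the culture dish was meant to block interleukin-1 signals in it. None of the 15 probe sets passed limma's test (adjusted p = 1.0 for each; 0% of all probe sets), with 0 of 15 and 956 of all at an unadjusted p under 0.05. Ciita was 0.16 higher with IL-1RA, at 8.78 ± 0.29 with it and 8.62 ± 0.18 without (SD, n = 4 each). RT1-Db1 1370383_s_at was 0.34 lower and RT1-Da 0.16 lower with IL-1RA, and Marchf8 was 0.16 lower.

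IL-1B added to autologous plasma was the opposite experiment. It too gave 0 of 15 by limma (0% of all probe sets), with 0 of 15 and 1121 of all at an unadjusted p under 0.05. Ciita stood at 8.33 ± 0.09 with IL-1B and 8.22 ± 0.26 in autologous cultures (SD, n = 4 each), a difference of 0.12 (SE 0.24). RT1-Bb differed by 0.20 (SE 0.29), RT1-Da by -0.13 (SE 0.23), Cd74 by -0.08 (SE 0.27), RT1-DMb by -0.09 (SE 0.22) and Marchf8 by -0.08 (SE 0.23). Each of these is smaller than its standard error.

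Plasma of another BN rat against the cells' own plasma tested what foreign plasma of the same strain does. Within the second cluster 14 of 15 probe sets were lower in allogeneic cultures, with a median difference of -0.20 over the 15 and 0.00 over all probe sets. Cd74 was the farthest, at 12.44 ± 0.64 in allogeneic (n = 12) and 13.31 ± 0.23 in autologous cultures (SD, n = 4), 0.87 lower (SE 0.22, 1.82-fold). Its adjusted p was 0.0965 by limma. RT1-Db1 1370383_s_at was 0.59 lower (adjusted p = 0.229), RT1-Bb 0.56 lower (adjusted p = 0.210), RT1-DMa 0.48 lower (adjusted p = 0.309) and RT1-Da 0.43 lower (adjusted p = 0.205), while Ciita was 0.21 lower (SE 0.20). None of the 15 passed, 0.00966% of all probe sets did, and 4 of 15 and 5478 of all had an unadjusted p under 0.05. Cd74 passed in 4 of the 16 fits without 1 array, with adjusted p = 0.0347 to 0.0465 by limma, namely without allogeneic replicate 5, 7 or 10 or autologous replicate 10. In the remaining fits its adjusted p ran from 0.0727 to 0.325. Without autologous replicate 10, 780 of all probe sets passed, against 3 with every array.

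In the first cluster Cd74 did not share this pattern: it averaged 13.08 in allogeneic and 13.07 in autologous cultures. RT1-Db1 1370383_s_at was 0.59 lower there too (lower in 3 of 3 pairs, as were 10.1% of all probe sets; adjusted p = 0.517), Ciita was 0.24 higher and RT1-Ba 1392334_at 0.44 lower (adjusted p = 0.387). The 3 allogeneic arrays of this cluster include the one with the actin difference of 0.76. None of the 15 passed by limma, against 1.07% of all probe sets (0% with the replicate number as a block), and 1 of 15 and 3403 of all had an unadjusted p under 0.05. The difference between clusters in the Cd74 effect was -0.87 (SE 0.35), with adjusted p = 0.279 by limma's interaction term, which called 0 of 15 probe sets and 0.696% of all. With both clusters pooled, allogeneic cultures were lower for RT1-Bb by 0.76 (adjusted p = 0.00868 by limma) and for Cd74 by 0.60 (adjusted p = 0.00891). Cluster and group are mixed unequally in this pooled fit. It called 12614 of all 31042 probe sets and 2 of the 15, so these calls do not set the class II genes apart.

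Treatment of DRlyp/lyp rats with IL-1RA from d30 to d40, against PBS, left 13 of the 15 probe sets lower, although none passed the test. Ciita 1379381_at stood in replicates 1 to 6 at 8.69, 8.06, 7.75, 8.30, 8.38 and 8.32 with serum of IL-1RA-treated rats, against 9.06, 8.96, 8.26, 8.89, 8.60 and 9.19 with serum of PBS-treated rats. It was lower in 6 of 6 same-numbered pairs, by 0.22 to 0.91. RT1-DMb stood at 9.70, 9.32, 9.02, 9.29, 9.77 and 9.33 with IL-1RA serum, against 9.98, 10.02, 9.41, 10.06, 10.08 and 9.88 with PBS serum, and was lower in 6 of 6 pairs. Cd74 stood at 12.92, 13.14, 12.88, 13.19, 12.89 and 13.24 with IL-1RA serum, against 13.06, 13.54, 13.18, 13.38, 13.07 and 13.51 with PBS serum, again lower in 6 of 6. Each of these 3 genes was lower in every pair, yet its IL-1RA and PBS arrays overlapped as groups. Of all probe sets, 3.02% were lower in every pair.

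The mean log2 differences were -0.58 for Ciita (1.49-fold lower), -0.50 for RT1-DMb (1.41-fold lower) and -0.25 for Cd74 (1.19-fold lower). Without pairing their SEs were 0.20, 0.18 and 0.22, and adjusted p was 1.0 by limma; with the replicate number as a block the SEs were 0.11, 0.09 and 0.05, and adjusted p = 0.136, 0.133 and 0.177. RT1-DMa (-0.41), RT1-Ba 1370822_at (-0.39), RT1-Bb 1371033_at (-0.37), RT1-Db1 1370383_s_at (-0.31) and RT1-Da (-0.23) were each lower in 5 of 6 pairs, with blocked adjusted p from 0.186 to 0.340. The main RT1-Ba probe sets were 0.19 and 0.20 lower in 5 of 6. Marchf8 was 0.13 higher with IL-1RA serum (4 of 6 pairs, blocked adjusted p = 0.703), and the Ciita probe set 1369214_a_at differed by 0.03. The median difference was -0.23 over the 15 and -0.01 over all probe sets.

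None of the 15 passed in either fit. Of all probe sets 0.00322% passed without the block and 0.00966% with it. An unadjusted p under 0.05 was reached by 3 of 15 and 612 of all without the block, and by 10 of 15 and 3191 of all with it. With pair 5 left out of the blocked fit, 5 of 15 were called, all lower, among 0.599% of all probe sets, and Ciita was at -0.65 (adjusted p = 0.0250). Without any other single pair 0 of 15 were called, with adjusted p for Ciita from 0.101 to 0.545.

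**Figure D4:**
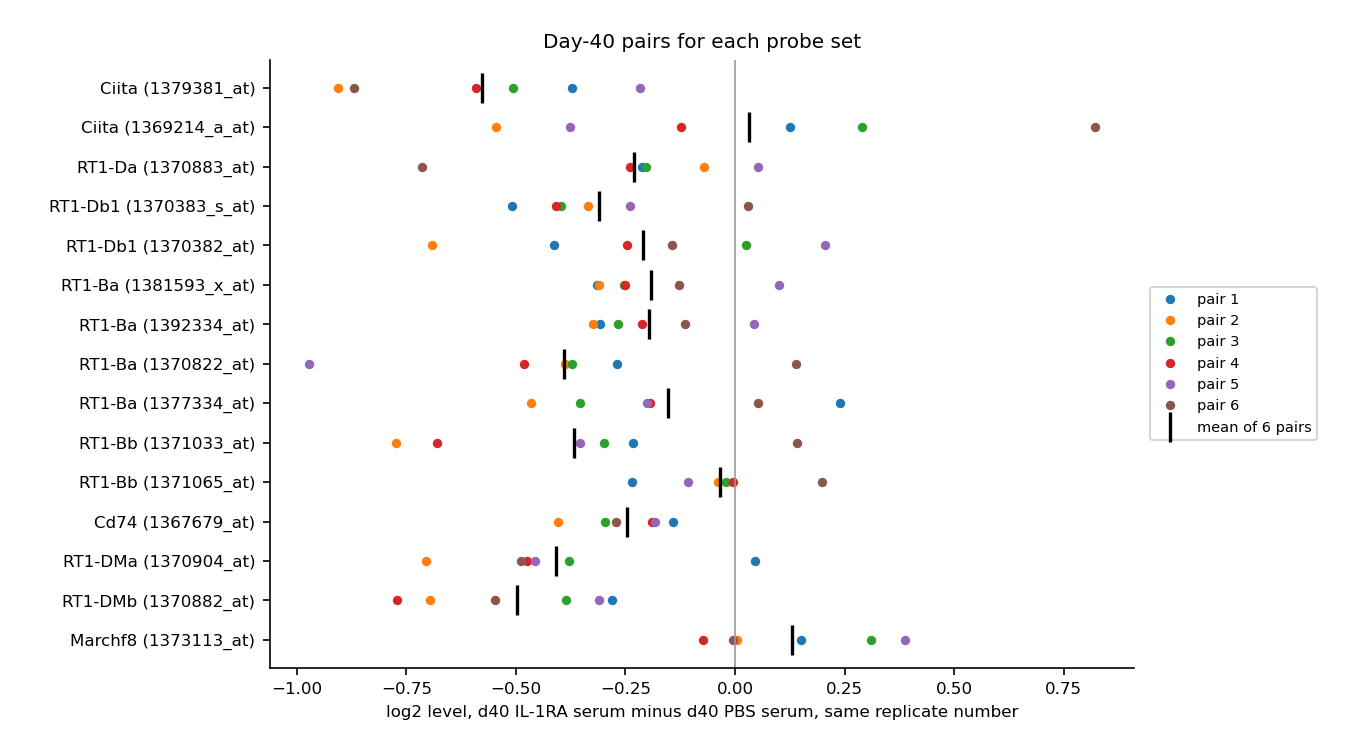
Log2 level with d40 IL-1RA serum minus that with d40 PBS serum (horizontal axis) for each of the 15 probe sets (rows), with 1 point per same-numbered pair, coloured by pair, and a bar at the mean of the 6 pairs. All 6 points lie below 0 for Ciita 1379381_at, RT1-DMb and Cd74, and 4 of 6 lie above 0 for Marchf8.

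Other measures moved with these pairs. The actin 3′ to 5′ difference was higher with IL-1RA serum in 6 of 6 pairs, with means of 3.90 for IL-1RA serum and 3.52 for PBS serum. It was higher by 0.74 in pair 5, whose loss from the blocked fit gave the calls above, and by 0.22 to 0.39 in the others. In limma's fit with the block and the actin difference as a covariate, Ciita stood at -0.89 (adjusted p = 0.118), RT1-Da at -0.60 (adjusted p = 0.115) and RT1-DMb at -0.58 (adjusted p = 0.240). Cd74 stood at -0.29 (adjusted p = 0.265), RT1-DMa at -0.29 and RT1-Bb 1371033_at at -0.15. The other Ciita probe set, 1369214_a_at, stood at 0.69 (adjusted p = 0.371), RT1-Ba 1370822_at at 0.27, RT1-Ba 1377334_at at 0.01 and Marchf8 at -0.07. No member passed in this fit, against 119 of all 31042 probe sets. The 5 B-cell markers, namely Ms4a1, Cd79b, Blk, Fcrla and Cd22, were 0.19 to 0.42 lower with IL-1RA serum, and their mean was lower in 6 of 6 pairs, by 0.01 to 0.68, with the largest difference in pair 5. Their level ran from 7.68 to 8.63 (mean log2 per array) with IL-1RA serum and from 8.35 to 8.89 with PBS serum. T-cell markers were also lower in 6 of 6 pairs (median gene difference -0.21), while the monocyte median was -0.03. Natural killer markers were lower in 5 of 6 pairs, erythroid markers higher in 6 of 6, by 0.05 to 0.27, and platelet markers higher in 5 of 6. The part of cell numbers in the class II values was not tested.

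Serum of PBS-treated donors at d40 was also set against autologous cultures of the first cluster. Ciita was 0.78 higher with d40 PBS serum, at 8.83 ± 0.34 there and 8.05 ± 0.41 in autologous cultures (SD, n = 6 each; SE of the difference 0.20, 1.71-fold). RT1-DMb was 0.56 higher (SE 0.18), RT1-DMa 0.49 higher (SE 0.25) and Cd74 0.22 higher (SE 0.22), while Marchf8 was 0.18 lower (SE 0.19). In all 13 of 15 probe sets were higher, with a median of 0.27 over the 15 and 0.02 over all. Adjusted p was 0.673 for Ciita and 1.0 for the others by limma, so 0 of 15 passed (0% of all probe sets), with 2 of 15 and 1100 of all at an unadjusted p under 0.05. The actin 3′ to 5′ difference averaged 3.52 with PBS serum and 3.91 in autologous cultures, and its part in these values was not tested. This comparison uses the same PBS arrays as the one above. Donor strain, donor age and serum against plasma all differ between d40 and autologous cultures. Their parts cannot be told apart, here or in the next comparison.

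Serum of IL-1RA-treated d40 donors against the same autologous cultures differed by -0.07 to 0.20 over the 15 probe sets. Ciita was at 8.25 ± 0.32 with IL-1RA serum and 8.05 ± 0.41 in autologous cultures (SD, n = 6 each; difference 0.20, SE 0.20), RT1-DMb differed by 0.06 and Cd74 by -0.03. By limma 0 of 15 passed (0% of all probe sets), and 0 of 15 and 213 of all had an unadjusted p under 0.05. With the replicate number as a block, 0 of 15 and 4 of all probe sets passed. Median differences were -0.01 over the 15 and 0.00 over all probe sets.

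Whether Ciita and its targets varied together was examined across arrays within each cluster. In these correlations Ciita stands for probe set 1379381_at unless the other is named. The permutations exchanged all arrays of a cluster freely. Same-numbered arrays of some groups deviated together (mean r 0.55 for d40 IL-1RA with PBS), so the arrays are not independent. Neither the permutation p-values nor the removal of group means allows for this. In the first cluster (21 arrays) the RT1-DMb level followed that of Ciita 1379381_at at r = 0.87 and rho = 0.84. Its permutation p was 1e-05, the smallest that the 1e+05 resamples can give, and adjusted over all probe sets p was 0.0665 for r and 0.0222 for rho. Without the 2 arrays farthest from the median of Ciita r was 0.86. RT1-Ba 1377334_at followed at r = 0.75 (rho = 0.74, permutation adjusted p = 0.0833), RT1-Da at 0.59, RT1-Db1 1370382_at at 0.58 and RT1-Ba 1381593_x_at at 0.56. RT1-Bb 1371033_at did not (r = 0.25, rho = 0.10). Marchf8 had r = -0.47 and rho = -0.53 (permutation adjusted p = 0.327 for r). By Pearson correlation 0 of 14 probe sets passed in this cluster (0% of all), and by rank correlation RT1-DMb alone did, where 0.0644% of all probe sets passed above 0 and 0.0966% below.

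In the second cluster (32 arrays), which holds the DR+/+ arrays by which Ciita was chosen, the order of the targets differed. RT1-Bb 1371033_at stood first at r = 0.82 and rho = 0.78 (0.77 without the 2 farthest arrays), then RT1-DMb at 0.61, RT1-Ba 1381593_x_at and 1392334_at at 0.59 each, RT1-Da at 0.57 and Cd74 at 0.52. RT1-Db1 stood at 0.46 and 0.44 on its probe sets, RT1-DMa at 0.42 and Marchf8 at -0.38. By permutation 8 of 14 probe sets had r above 0 with an adjusted p under 0.05, where 11.2% of all probe sets did so and 14.1% lay below 0, but this count rests in part on the arrays that chose Ciita and is given as a description. Without the DR+/+ and autologous arrays, 24 arrays remained. There RT1-DMb stood at r = 0.81 (rho = 0.83, permutation adjusted p = 0.0207 for each, r = 0.80 without the 2 farthest arrays) and RT1-Bb 1371033_at at r = 0.81 (rho = 0.76, permutation adjusted p = 0.0214 and 0.0226, r = 0.76 without the 2 farthest). RT1-Ba 1392334_at and 1381593_x_at had r = 0.65 and 0.63 (rho = 0.71 and 0.72, permutation adjusted p = 0.0406 and 0.0463 for r). These 4 of 14 passed by Pearson, against 0.718% of all probe sets above 0 and 0.206% below, and Marchf8 had r = -0.15. The RT1-Ba probe sets among the 4 derive from 1 source sequence and followed each other at r = 0.995 over the 32 arrays. The 4 are therefore not separate measurements. The arrays still share plasma groups, so part of each r is a difference between group means.

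With the group means taken out, r in the first cluster was 0.76 for RT1-DMb, 0.67 for RT1-Ba 1377334_at and 0.61 for RT1-Da. In the second it was 0.55 for RT1-Bb, 0.51 for RT1-Ba 1381593_x_at and 0.48 for RT1-DMb, and for Marchf8 it turned from below 0 to 0.24. A limma fit of each probe set on Ciita with the 10 group-by-cluster means removed gave RT1-DMb the lowest adjusted p of the members, 0.0767, with a slope of 0.51 (SE 0.12). In that fit 0 of 14 passed, against 0.0515% of all probe sets above 0 and 0.00322% below. Marchf8 had a slope of 0.01 (SE 0.15). Relations differed on the other Ciita probe set, 1369214_a_at, for which no permutation was run. With group means kept, RT1-DMb had r = 0.06 with it in the first cluster and 0.26 in the second. RT1-Bb 1371033_at had 0.44 and 0.25, RT1-Da -0.41 and 0.06, and Cd74 0.16 and 0.30. Its highest r in the second cluster was 0.50, for RT1-Ba 1370822_at. The limma slope of RT1-DMb on it was 0.20 (SE 0.15, adjusted p = 0.545).

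**Figure D5:**
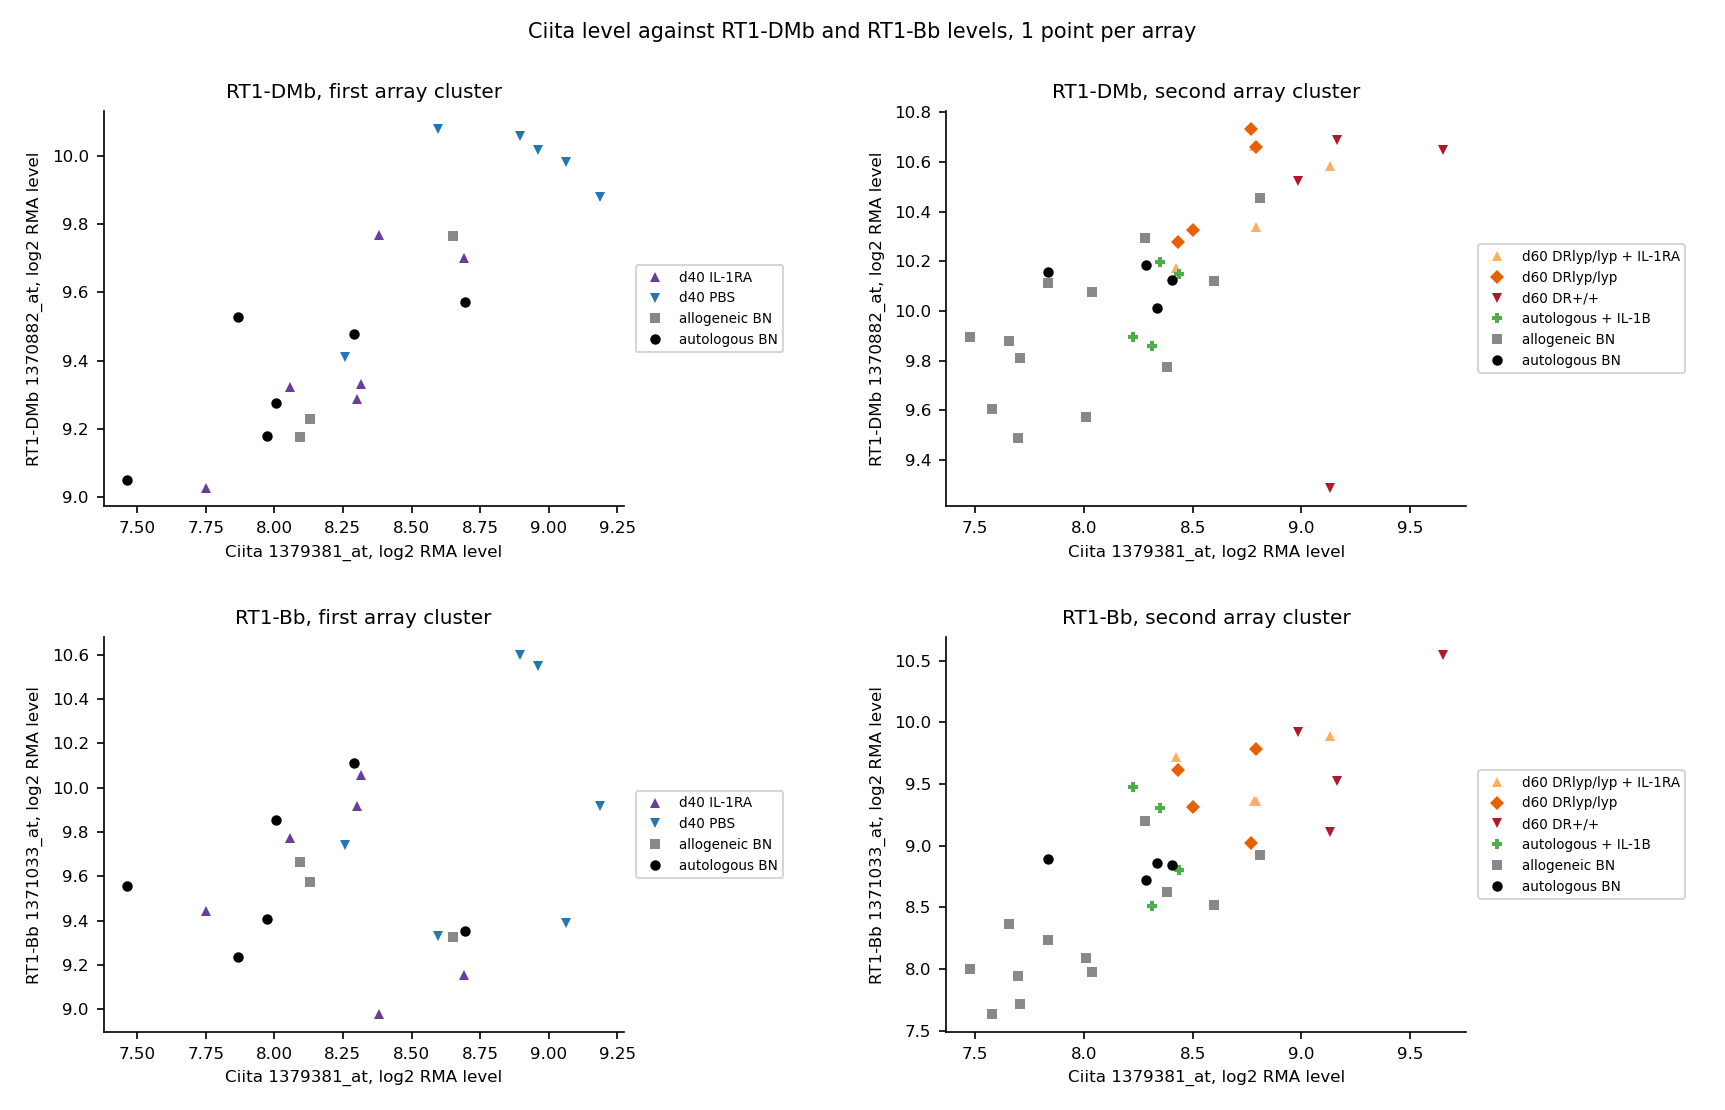
Log2 level of RT1-DMb and RT1-Bb (1371033_at) (vertical axes) against that of Ciita 1379381_at (horizontal axis), with one point per array, coloured by group, in separate panels for the first cluster (21 arrays) and the second (32 arrays). RT1-DMb follows Ciita at r = 0.87 in the first cluster and 0.61 in the second, and RT1-Bb at 0.25 and 0.82.

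The genes whose level was most like that of Ciita, by the lower of the 2 within-cluster r over 21 and 32 arrays, were Fut4 (0.75), Tor4a (0.69), Reep6 (0.67), Pou2af1 (0.66), Fcmr (0.66), Tmbim1 (0.66), Arhgap24 (0.66) and Pgam1 (0.63), among 13902 genes. By the same measure 16 genes stood above RT1-DMb, 30 above RT1-Da and 32 above RT1-Ba 1381593_x_at. Set against marker lists, Ciita followed the mean of the 8 monocyte markers at r = 0.65 in the second cluster (rho = 0.68), where the list also differs between the groups that chose Ciita, and with group means removed r was 0.07. Over the arrays of the first cluster r was 0.43 (rho = 0.47, permutation p = 0.132 for r, adjusted over 10 such relations), and 0.49 with group means removed. In the second and first clusters Ciita followed the B-cell mean at 0.41 and 0.33, the mean of 6 dendritic-cell markers at 0.40 and 0.13, the T-cell mean at 0.20 and -0.08 and the actin difference at -0.20 and -0.14. With group means removed these were 0.24 and 0.14 for B-cell, 0.39 and 0.34 for dendritic-cell and -0.36 and -0.45 for T-cell markers, and 0.35 and -0.06 for actin. By rank, Ciita and the actin difference stood at rho = -0.17 in the second cluster and -0.44 in the first. The permutation p for rho, adjusted over the 10 relations, was 0.439 and 0.116.

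Among the chains themselves, RT1-Db1 1370383_s_at and Cd74 varied together at r = 0.89 over the 32 arrays of the second cluster, and RT1-Da with RT1-Ba 1392334_at at 0.88. In the first cluster the closest pair of different genes was RT1-Bb 1371033_at with Cd74 at 0.79, whereas RT1-Da and RT1-Bb stood at -0.24. These values describe arrays that share plasma groups and array normalisation.

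Genes around the pathway were read as 2 lists. Of 23 factors that act on class II promoters or on Ciita, such as the RFX and NF-Y subunits, interferon-gamma signalling genes and Irf1, 19 had a probe set, and of 18 genes of antigen processing and surface traffic 15 had one. None of either list passed in any of the 8 tested comparisons by limma. With d40 IL-1RA serum against PBS serum the factors had a median of -0.04 (from -0.18 to 0.36), with Creb1 at 0.36 and Nfyc at -0.13 as the smallest unadjusted p. Over all genes the median was -0.03. The RFX subunits Rfx5, Rfxap and Rfxank, which CIITA docks onto, stood at -0.06, -0.10 and -0.06. The processing genes had a median of -0.06, with Sppl2a, a protease that clears the Cd74 stub, at 0.21 and the cathepsin Ctsh at -0.29.

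In allogeneic against autologous cultures of the second cluster the processing genes had a median of -0.51, against -0.06 over all genes. The smallest p belonged to Ctsh (-0.75, adjusted p = 0.103 by limma) and to Ifi30, the lysosomal thiol reductase (-0.68, adjusted p = 0.128). Of the factors, with a median of -0.24, Irf1 was 1.18 lower (adjusted p = 0.0881) and Jak2 0.58 lower (adjusted p = 0.188). B- and T-cell marker lists had medians of -0.38 and -0.40 in this comparison. With DRlyp/lyp against DR+/+ plasma, the factors had a median of 0.04 and the processing genes of 0.12, with Irf2 at -0.85 (adjusted p = 0.675), Crebbp at -0.54 (adjusted p = 0.784), Ctss at 0.52 (adjusted p = 0.725) and Ctsh at 0.46 (adjusted p = 0.905).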

How the data were processed

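PBMC RNA was measured on 53 Affymetrix rat arrays. The values are the log2 levels that the authors deposited, 31099 probe sets per array, made with RMA and Partek 6.2 per the submitters' processing notes. Scanner files were not used here, so background and saturation of probe sets were not assessed. A fold change is 2 to the power of a log2 difference. The 57 control probe sets were left out and no filter on low values was applied, so all 15 members were tested. Probe sets were named from the platform annotation: 20826 had 1 symbol, 436 several and 9780 none. Groups came from the sample labels. Those labels do not say that replicates came from separate animals, so p-values measure the spread between these samples, and the number of arrays limits the precision.

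Arrays were clustered by Ward's method; leaving out the members, complete linkage and k-means each placed 53 of 53 arrays alike. The linear model of limma 3.58.1 (R 4.3.3) with a trended prior was fitted to all arrays with 10 means, 1 per group and cluster, and p-values were Benjamini-Hochberg adjusted over 31042 probe sets, called under 0.05. Fits with replicate number as a block were run beside it. Numbers were taken as pairs where each pair's deviations from the group means correlated above 0.1: this held for d40 IL-1RA with PBS (lowest r 0.40), DRlyp/lyp with DR+/+ (0.17), d40 IL-1RA with autologous (0.13) and allogeneic with autologous in the first cluster (0.10). The pairing rests on this check of the data. Correlations used 1e+05 permutations (Python 3.11.15, scipy 1.17.1), and figures matplotlib 3.10.9. On simulated data with 31042 probe sets the fit recovered 74% to 88% of log2 differences of 1 and 98% to 100% of those of 2. Genes of the 2 pathway lists were named by smallest p where none was called, and genes like Ciita by the 8 highest values of the lower within-cluster r. Members, lists and tests were chosen with earlier results of these data known.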

Additional observations from a re-analysis of the deposited data

Results flagged for a closer look

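Arrays that stood apart from the rest of their group were looked for by Dixon's ratio in 120 sets of 4 or 6 arrays, 1 per probe set and group within a cluster. The allogeneic sets of 3 and 12 arrays were not tested. By this rule 6 of the 120 were found, the same share as the 1 in 20 that would be expected of independent sets. The sets are not independent, because the same arrays recur in them. DR+/+ replicate 4 was the lowest of 4 for RT1-Db1 1370383_s_at at 9.73 (nearest array 11.82) and for RT1-DMb at 9.29 (nearest 10.52). DRlyp/lyp plus IL-1RA replicate 3 was the lowest of 4 for Cd74 at 13.36 (nearest 13.57) and for RT1-Bb 1371065_at at 3.04 (nearest 3.37). Replicate 3 of d40 PBS was the lowest of 6 for RT1-DMb at 9.41 (nearest 9.88), and autologous replicate 10 was the highest of 4 in the second cluster for RT1-Db1 1370382_at at 9.09 (nearest 7.99).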

How the results depend on the processing

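Each count of members called and each member value was recomputed under a limma fit of the compared groups alone, a fit with no variance trend, a filter on low means, array centring, a second quantile normalization, a stricter threshold, the actin covariate, the cluster pooled or as an additive block, the replicate block and the loss of each array. Of the recomputed counts, 163 stayed within 1.5 times the value given, 6 went up and the other two went down. Allogeneic against autologous plasma had 0 of 15 called in each cluster and 2 lower with the clusters pooled, where Cd74 was at -0.60 (adjusted p = 0.00891) against 0.00 in the first cluster. The pooled fit called 12614 of all probe sets. Without single arrays the second-cluster count ranged from 0 to 1. Of 14 relations with Ciita in the second cluster, 8 passed by Pearson, 4 without the DR+/+ and autologous arrays (chosen after seeing the data) and 0 after removal of the group means. Over 2459 recomputed member values 8 passed under another setting, 154 had the opposite sign and 35 moved by over 1 residual SD. The cause was not tested.

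The replicate block called 0 of 15 in every comparison that shared numbers, so it changed no call. For d40 IL-1RA against PBS the blocked adjusted p of Ciita was 0.136. Where the numbers did not meet the pairing rule, the block left all probe sets called at 0 for IL-1RA added in culture (3 of 4 arrays correlated best with their own number) and for d40 PBS against autologous (3 of 6), and at 4 for allogeneic in the second cluster (0 of 4). For IL-1RA added in culture the mean r of equal numbers was 0.38, as for DRlyp/lyp with DR+/+, but the lowest was 0.07. No paired analysis was possible for IL-1B because its arrays share no numbers with the autologous arrays of their cluster. Over all probe sets, the first-cluster allogeneic comparison called 332, and from 0 to 978 without single arrays (0 without replicate 2 and 978 without replicate 1). The second-cluster one called 3, and from 0 to 780 without single arrays (780 without autologous replicate 10).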
